A study of Mus musculus with 23 samples.

Results

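The T cell receptor alpha (TRA) clonotypes that recurred across libraries were examined in syngeneic mice bearing Nras-mutant melanoma. A clonotype was a combination of V segment name, J segment name and CDR3 amino acid sequence, with no unresolved residue. A clonotype was called public here when its count was above 0 in 5 or more of 23 libraries. This held for 158 of 29047 TRA clonotypes, or 0.544% (95% Wilson interval 0.466% to 0.635%, counting error only). The clonotypes were chosen by their listed counts in these same libraries, so how often and how strongly these clonotypes were listed is described below without a test.

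The tumour line was derived from NIL, a syngeneic murine melanoma line with Nras Q61R, and was irradiated with UV light to raise its mutational load. All libraries shared this model, and they came from 4 treatments at times labelled D4 and D11. Control libraries carry the treatment label no (3 at D4 and 2 at D11), and trametinib, a MEK inhibitor, BGB-283, a RAF kinase inhibitor, and the combination of both drugs have 3 libraries at each time. The event that starts the day count is not labelled. Nothing labels libraries within a group as separate animals, so a spread or p-value here measures the difference between libraries, which may be technical. The tissue label names a melanoma cell line and the source label the mouse model. The table holds T cell receptor chains alone, so no marker of another cell type could be read. In bulk RNA, fewer T cells and less receptor RNA per cell cannot be told apart.

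The alpha chain is made by joining one V segment to one J segment, with no D segment between them. Bases are trimmed and added at the junction, and the CDR3 is the loop that spans it. Joins that need little trimming and few added bases arise repeatedly in different animals, and such shared receptors are known as public. In the mouse locus many TRAV genes exist in near-identical copies. High-numbered TRAJ segments lie near the V genes and low-numbered ones far from them.

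The CDR3s of some widely listed clonotypes are shown first because the results on sharing turn on them. They are not a full ranking. TRAV11N with TRAJ18 (20 libraries), TRAV14D-3/DV8V14N-3 with TRAJ22 (17) and TRAV13D-1 with TRAJ5 (16) are among those left out. Each line gives V name, J segment and CDR3 in amino acids. A joint V name, such as TRAV14-2V14N-2, stands for copies that were not separated in the deposited table.
TRAV14-2V14N-2 TRAJ22: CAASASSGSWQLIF
TRAV12N-3 TRAJ11: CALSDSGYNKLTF
TRAV7N-5 TRAJ9: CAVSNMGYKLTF
TRAV8-1V8D-1 TRAJ22: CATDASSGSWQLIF
TRAV9N-2 TRAJ37: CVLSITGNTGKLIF
TRAV7D-3 TRAJ21: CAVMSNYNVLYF
TRAV7D-2 TRAJ9: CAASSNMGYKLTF
TRAV12D-2 TRAJ48: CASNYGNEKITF
The first was listed in 20 libraries, the second and the third in 14 each, and the others in 13, 12, 11, 10 and 5 libraries in the order shown. TRAV12D-2 with TRAJ48 is shown as one of those that were far larger in 1 library than in the next. Other public clonotypes are named below by V and J segment, some without their CDR3.

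Most TRA clonotypes were private to 1 library. Of 29047, 26570 were listed in 1 library, 1760 in 2, 422 in 3 and 137 in 4. The public clonotypes were concentrated at the low end, with 65 in 5 libraries, 35 in 6 and 17 in 7, while 41 were listed in 8 or more and 21 in 10 or more. None was listed in all 23 libraries, and the widest, at 20 libraries, were TRAV11N with TRAJ18 and TRAV14-2V14N-2 with TRAJ22. The threshold marks no break. Clonotypes just inside it (5 libraries) had a median highest share of TRA counts in a library of 0.0825% and a mean CDR3 length of 13.3 residues, and those just outside (4 libraries) had 0.0990% and 13.6 residues.

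The number of public clonotypes listed per library moved with the number of TRA clonotypes found there. TRA counts ran from 37504 to 227206 in control, 64064 to 294456 with trametinib, 116153 to 358778 with BGB-283 and 143391 to 524431 with both drugs. Control libraries listed 12, 22 and 29 public clonotypes at D4 and 18 and 35 at D11. Trametinib libraries listed 36, 47 and 63 at D4 and 69, 32 and 39 at D11. BGB-283 libraries listed 31, 37 and 50 at D4 and 25, 44 and 40 at D11. Combination libraries listed 86, 111 and 89 at D4 and 53, 86 and 36 at D11. The lowest combination library thus lay beside the highest control library, and 5 of the 6 combination libraries lay above every control and BGB-283 library. These numbers rest on clonotypes chosen partly by the same libraries. Chosen by the libraries of the other treatments alone, 127 clonotypes qualified for control, 80 for trametinib, 99 for BGB-283 and 47 for both drugs. Of these, control libraries listed 8 to 24, trametinib libraries 13 to 35, BGB-283 libraries 14 to 31 and combination libraries at most 34. All 4 ranges then overlapped, but the 4 sets differ in size, so the numbers do not compare directly.

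As means, 23.2 ± 9.04 public clonotypes (SD, n = 5) were listed in control, 47.7 ± 15.1 (SD, n = 6) with trametinib, 37.8 ± 8.98 (SD, n = 6) with BGB-283 and 76.8 ± 27.3 (SD, n = 6) with both drugs. Thinning every library to 37504 TRA counts left means of 22.8, 46.0, 36.4 and 67.7 in the same order. Counts look like several reads per molecule, with an estimated 2013 to 28653 TRA molecules per library. Equal counts therefore do not equalise the molecules sampled. As a share of the TRA clonotypes of a library, control was highest and combination lowest. Control libraries had 4.74% ± 0.546 of their clonotypes public (SD, n = 5), and combination libraries 2.99% ± 0.729 (SD, n = 6). For trametinib the value was 3.82% ± 0.760 and for BGB-283 4.02% ± 0.492 (SD, n = 6 each). At equal counts these were 4.83% (control), 3.48% (both drugs), 3.98% (trametinib) and 4.31% (BGB-283). Libraries with more TRA clonotypes therefore listed more public ones but a smaller share of them.

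**Figure D1:**
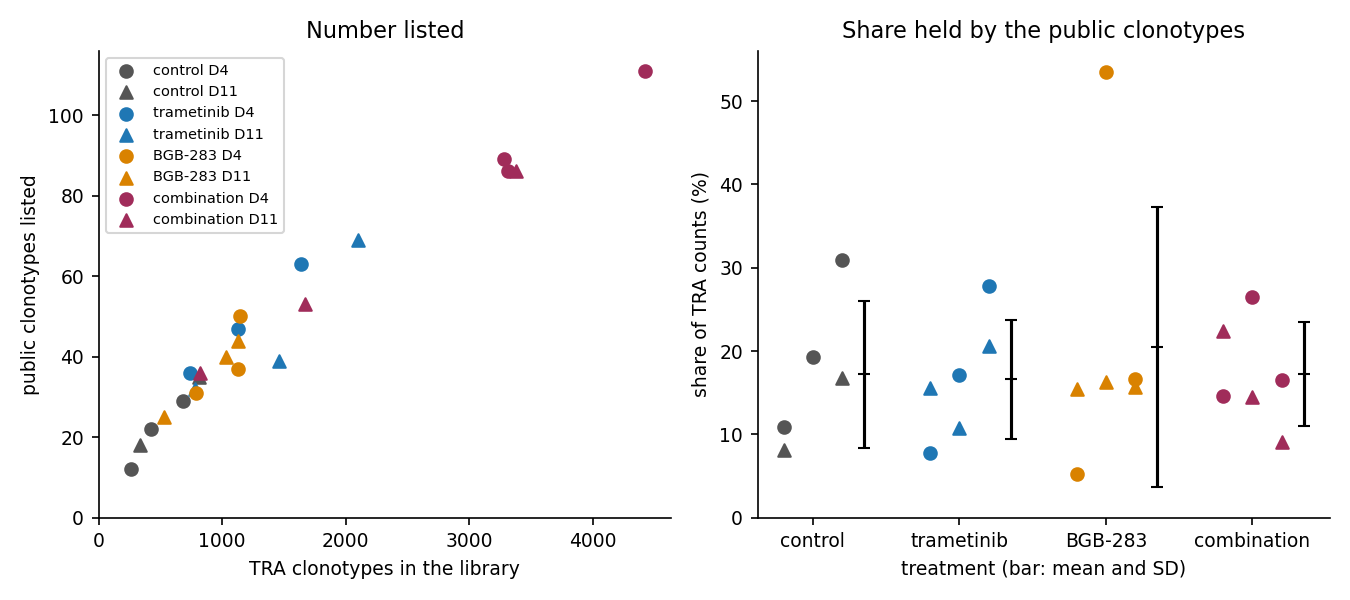
The left panel plots, for each of 23 libraries, the public clonotypes listed against all TRA clonotypes of that library, and the right panel plots the share of TRA counts (%) they held, with the mean and SD of each treatment as bars. Numbers listed run from 12 to 111 and grow with the clonotypes found, while the shares of the 4 treatments overlap and 1 BGB-283 library lies at 53.5%.

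The share of TRA counts held by the public clonotypes varied widely between libraries, and the 4 treatments overlapped. They took 17.2% ± 8.85 of TRA counts in control (SD, n = 5, 8.16% to 30.9%), 16.6% ± 7.14 in trametinib (SD, n = 6, 7.82% to 27.8%) and 17.3% ± 6.23 in combination libraries (SD, n = 6, 9.08% to 26.5%). The BGB-283 mean was 20.5% ± 16.8 (SD, n = 6), and it rested on D4 replicate 2 at 53.5%, the next library being at 16.7%. Without that library the BGB-283 mean was 13.9%. A share set by the same counts as the membership is raised by construction, so it was also taken with membership set by the libraries of the other treatments alone. The means were then 12.5% ± 11.1 in control from 127 such clonotypes, 12.1% ± 6.74 with trametinib from 80, 6.90% ± 4.66 with BGB-283 from 99 and 7.89% ± 7.80 with both drugs from 47. With each library's largest public clonotype left out, the mean was 7.63% ± 3.59 in control, 11.9% ± 5.90 with trametinib, 7.71% ± 2.22 with BGB-283 and 10.2% ± 5.19 with both drugs.

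A few clonotypes carried most of this share. Averaged over the 23 libraries, the public clonotypes held 17.9% of TRA counts, of which the 5 largest took 37.8%, the 10 largest 55.1% and the 20 largest 72.5%. Of the 158, 41 reached 1% of TRA counts or more in some library, 60 peaked between 0.1% and 1%, and 57 never reached 0.1%. Among all TRA clonotypes, 293 reached 1% in a library. Of the 337 times that a clonotype stood at 1% or more in a library, 78 (23.1%) concerned a public one. By treatment this was 14 of 78 in control, 23 of 81 with trametinib, 20 of 87 with BGB-283 and 21 of 91 with both drugs.

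Clonotypes listed in more libraries also had higher peaks. The median highest share in a library was 0.00816% for clonotypes of 1 library, 0.0233% for 2, 0.0439% for 3, 0.0990% for 4, 0.139% for 5 to 7 and 0.537% for 8 or more. It was 0.197% for public clonotypes and 0.00912% for the others, and the number of libraries rests on the same counts as the share. A high share was nevertheless often confined to few of the libraries that listed a clonotype. Of the 41 public clonotypes that reached 1%, 14 did so in 2 or more libraries and 9 in 3 or more, and 14 had a highest share at least 10 times the next. The ratio of highest to next share was 1200 for TRAV16D/DV11V16N with TRAJ26, 268 for TRAV8N-2 with TRAJ26, 118 for a TRAV7D-2 clonotype with TRAJ5 and 107 for a TRAV13D-1 clonotype with TRAJ5 listed in 5 libraries. It was 19.0 for TRAV14-2V14N-2 with TRAJ42, the public clonotype with the highest share.

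TRAV14-2V14N-2 with TRAJ42 held 46.3% of TRA counts (166287 counts) in BGB-283 D4 replicate 2. It was listed in only 5 other libraries: at 1.14% in control D4 replicate 3, 0.00775% and 0.646% in trametinib D11 replicates 1 and 2, 2.43% in BGB-283 D11 replicate 3 and 0.286% in combination D4 replicate 2. The other 17 libraries listed it at 0. It was above 1% in 3 libraries, 1 of them control.
TRAV16D/DV11V16N with TRAJ26, whose CDR3 was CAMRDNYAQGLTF, held 12.5% of TRA counts (15905 counts) in control D11 replicate 2. Its 4 other libraries were all combination ones, at 0.0104% or less, so its highest share was 1200 times the next. This clonotype was singled out after its values were seen.
TRAV12D-2 with TRAJ48, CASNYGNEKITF, held 16.2% in combination D11 replicate 1 and 2.06% in combination D4 replicate 3. It was at 0.167% in trametinib D11 replicate 3, 0.0341% in BGB-283 D11 replicate 3 and 0.00356% in combination D4 replicate 1, and all control libraries listed it at 0.
TRAV13D-1 with TRAJ5 was listed in 16 libraries. Its control shares were 0%, 0.00291% and 18.8% at D4 and 0% and 0.533% at D11, and its next highest share was 3.85%, in trametinib D11 replicate 3. In combination libraries it ran from 0% to 0.189% with a median of 0.109%. Each of these 4 clonotypes thus had a highest share well above its next one. TRAV13D-1 with TRAJ5 still reached 1% or more in 4 libraries.

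Other public clonotypes were large in several libraries. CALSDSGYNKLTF with TRAV12N-3 and TRAJ11 was listed in 14 libraries and reached 1% in 7, with a highest share of 7.21% in combination D4 replicate 1. Its control shares were 0.760%, 2.82% and 5.30% at D4 and 0% in both D11 libraries. It ran from 0% to 4.86% in trametinib libraries (median 0.359%), from 0% to 1.85% in BGB-283 (median 0%) and from 0% to 7.21% in combination libraries (median 0.473%). Every treatment held both a library at 0 and one above 1%.
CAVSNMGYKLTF with TRAV7N-5 and TRAJ9 was also listed in 14 libraries and reached 1% in 6. Its control shares were 1.65%, 8.49% and 0% at D4 and 0% and 0.0110% at D11, and its highest shares were 3.13% with trametinib, 2.20% with BGB-283 and 1.12% with both drugs.
The largest TRAV7D-2 clonotype with TRAJ37 was listed in 9 libraries and reached 1% in 5 of them. It stood at 6.23% in trametinib D11 replicate 3, 6.53% and 2.82% in BGB-283 D4 replicate 3 and D11 replicate 2, and 6.21% and 1.58% in combination D4 replicate 2 and D11 replicate 1. Its only control library, D4 replicate 1, held 0.227%. The groups overlapped at 0 in all 3 cases.

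**Figure D2:**
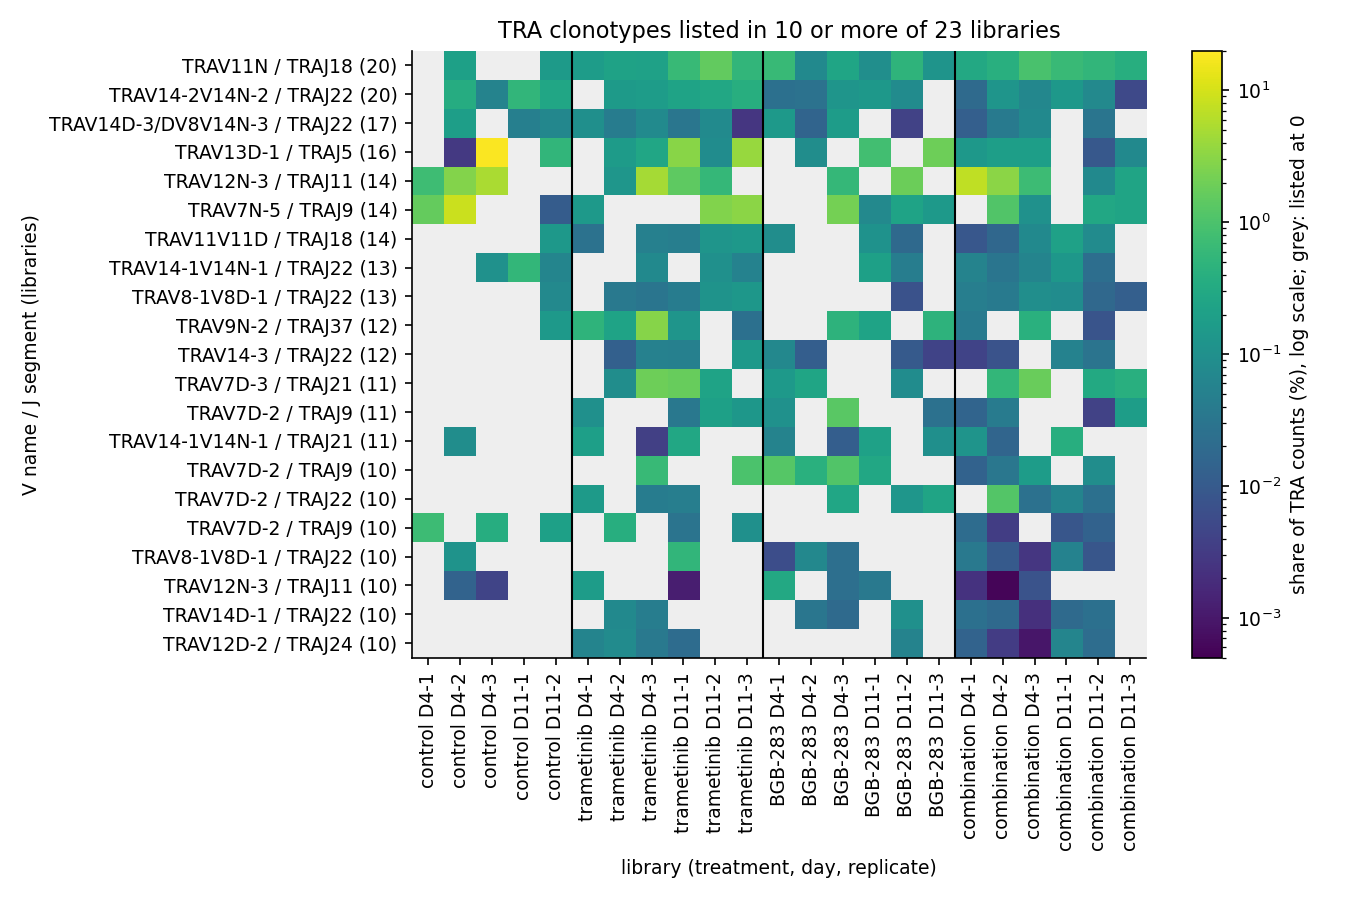
Each line of the map is 1 of the 21 TRA clonotypes listed in 10 or more libraries, named by V and J segment with the number of libraries, and each column is 1 library; colour gives the share of TRA counts (%) on a log scale, and grey marks a library that lists it at 0. Of the 21, 9 reach 1% in some library, TRAV13D-1 with TRAJ5 reaching 18.8% in 1 control library.

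J segment use was narrow. The public clonotypes used 27 of the 41 TRAJ segments found, and TRAJ22 alone supplied 36 of the 158, or 22.8%, against 6.61% of all TRA clonotypes. TRAJ30 followed with 17 (10.8% against 4.69%), TRAJ21 with 12 (7.59% against 5.20%), TRAJ37 with 11 (6.96% against 3.89%) and TRAJ26 with 9 (5.70% against 5.67%). TRAJ5 had only 8 but was also over-represented, at 5.06% against 1.77%. Counting each pair of J segment and CDR3 once, to set aside V copies, TRAJ22 still made up 24 of 127 pairs (18.9% against 5.64% of all pairs). By position, TRAJ21 to TRAJ40 made up 69.0% of public and 57.0% of all clonotypes, TRAJ1 to TRAJ20 27.2% and 25.2%, and the segments from TRAJ41 up, nearest the V genes, 3.80% and 17.8%.

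**Figure D3:**
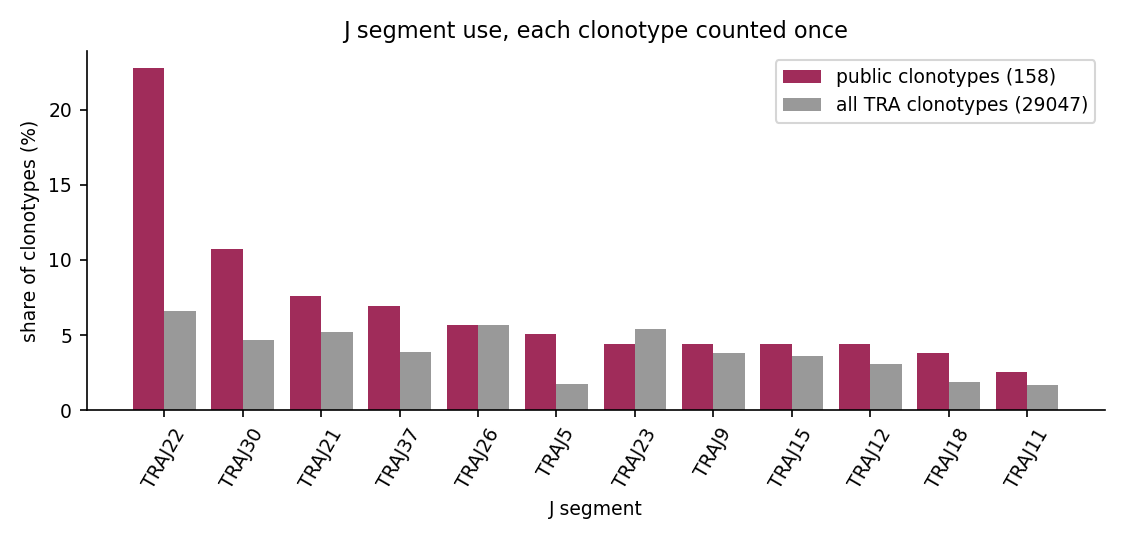
Bars show the share (%) of the 158 public and of all 29047 TRA clonotypes that use each of the 12 J segments with the most public clonotypes, each clonotype counted once. TRAJ22 stands at 22.8% of public against 6.61% of all clonotypes, while TRAJ26 is near equal at 5.70% and 5.67%.

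The TRAJ22 clonotypes were alike in sequence and small in size. Of the 36, 35 ended in SSGSWQLIF and 29 in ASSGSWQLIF, against 59.1% and 23.7% of all TRAJ22 clonotypes. They held 24 distinct CDR3s with 19 V names from 11 V families, so the shared end was not tied to a single V. Only 2 of the 36 reached 1% of TRA counts in a library, against 39 of the 122 with another J segment, and their median highest share was 0.0989% against 0.255%.

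V use was also uneven. The public clonotypes used 42 of 143 V names and 14 of 21 V families. The TRAV7 family gave 46 (29.1% against 21.7% of all TRA clonotypes), TRAV14 20 (12.7% against 15.5%), TRAV8 19 (against 6.70% of all), and TRAV12, TRAV13, TRAV10 and TRAV16 11 each. TRAV6 was scarce, with 6 (3.80% against 10.7%). Among single names TRAV7D-2 led with 28 (17.7% against 6.33%), then TRAV8-1V8D-1 with 16 (10.1% against 4.19%). The 28 TRAV7D-2 clonotypes used 12 J segments and all began CAA. They were large: 12 of 28 reached 1% in a library, against 29 of the other 130, and their median highest share was 0.778%.

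CDR3 length barely set the public clonotypes apart. Their mean was 13.4 ± 1.02 residues (SD over clonotypes, n = 158) against 13.6 ± 1.44 in the others, with a median of 14 in both, and weighting by counts turned the difference of -0.155 residues to 0.105. The range was narrower: all lay between 11 and 16 residues, 14 residues made up 39.9% of public and 30.7% of other clonotypes, and 16 residues 1.27% and 6.19%. All began with C, as a CDR3 does.

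The larger contrast was in how much of the CDR3 matched the common residues of its V name and J segment. For each V name and each J segment a consensus was read from these data, as the residues shared by at least 50% of its clonotypes counted inward from the CDR3 end, and the residues covered by neither consensus were counted. Public clonotypes had 1.29 ± 1.01 such residues (SD over clonotypes) and the others 2.69 ± 2.15. The mean was 2.77 in clonotypes of 1 library, 1.84 in 2, 1.57 in 3, 1.68 in 4, 1.31 in 5 to 7 and 1.24 in 8 or more. Of the public clonotypes, 23 (14.6%) had none, against 3.38% of the others. Large clonotypes are also more easily found in several libraries. Among the 5642 other clonotypes whose mean share was at or above that of the smallest public one, the mean was 2.07 ± 1.29, and TRAJ22 made up 7.60% of them. Clonotypes are not independent replicates, and public ones share V, J and motifs, so no test was made.

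**Figure D4:**
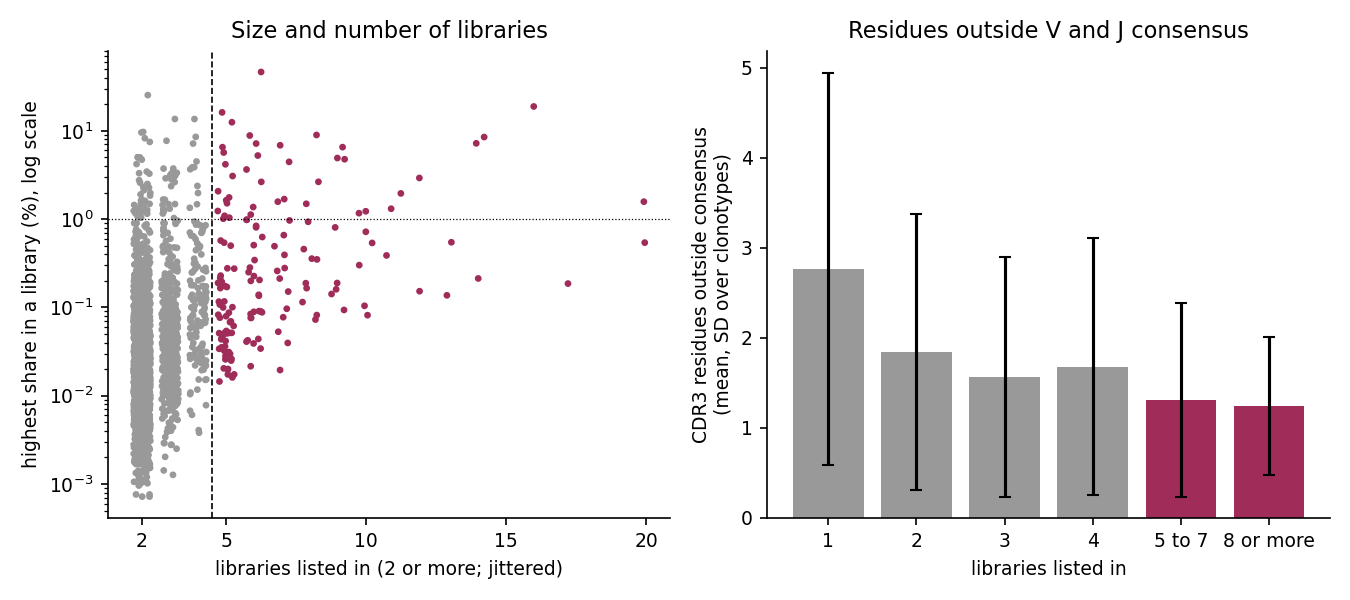
The left panel plots the highest share of TRA counts in a library (%, log scale) of each clonotype listed in 2 or more libraries against the number of libraries, with the dashed line at the threshold for public clonotypes and the dotted line at 1%; the right panel gives the mean CDR3 residues outside the V and J consensus, with the SD over clonotypes as bars. Clonotypes on both sides of the threshold overlap in size, and the residues outside consensus fall from 2.77 in 1 library to 1.24 in 8 or more.

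Many public clonotypes differed from another by a single residue. In all, 51 of the 158 fell into 18 families with the same V, J and length and 1 residue between neighbours. Of the 57 neighbouring pairs, 23 differed at CDR3 position 4 and 28 at position 5, counted from the first C as position 1. The 2 largest families had 7 clonotypes each, and 5 of the TRAV8-1V8D-1 family with TRAJ22 are shown because their varied residues sit at the junction between V and J.
Family member listed most widely: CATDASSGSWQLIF
Family member 2: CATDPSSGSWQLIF
Family member 3: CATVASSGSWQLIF
Family member 4: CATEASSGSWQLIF
Family member 5: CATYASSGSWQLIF
The 7 clonotypes of this family were listed in 5 to 13 libraries each, with highest shares from 0.0454% to 0.537%. The other family of 7 used TRAV7D-2 and TRAJ37 and was listed in 5 to 9 libraries per clonotype, with highest shares from 0.0174% to 6.53%. Both families were chosen after their values were seen.

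One pair differed at the last residue instead. CALSDSGYNKLTL with TRAV12N-3 and TRAJ11 was listed in 6 libraries with 3 to 49 counts. All 6 also listed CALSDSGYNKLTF, with 1629 counts or more and from 246 to 7594 times the count. The F form was listed in 14 libraries, the highest count without an L form being 3575. Whether the L form is an error read of the F form was not tested. Of the 158 public clonotypes, 5 did not end in F, while 5.94% of other TRA clonotypes did not. Apart from the L form, these ended in W and used TRAJ33 or TRAJ38.

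A single CDR3 was often spread over V names. The 158 public clonotypes came from 127 pairs of J segment and CDR3. Of these pairs, 106 had 1 public V name, 14 had 2, 6 had 3 and 1 had 6. The 21 pairs with 2 or more V names held 52 of the 158 clonotypes, and in 10 of them the names belonged to 1 V family and in 11 to 2 or more. Counting every V name, public or not, a median of 3 names shared the pair, with a maximum of 19. At least 2 names were found for 82.7% of the pairs with a public clonotype and for 15.4% of those without. Pairs with a public clonotype have more listings by rule, and so more chances of a further name. The pairs were not matched for this.

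The pair TRAJ22 with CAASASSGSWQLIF was the widest. It was listed under 16 V names of 5 families, 6 of them public, and with all names summed it was the only pair found in all 23 libraries. TRAV14-2V14N-2 took 39.4% of its counts, TRAV14D-3/DV8V14N-3 16.6%, TRAV14-1V14N-1 15.1%, TRAV14-3 6.68%, TRAV14D-1 6.50% and TRAV5D-4V5N-4 3.64%. Up to 8 names occurred in a single library, and 20 libraries held 2 or more. Summed over names, it held 0.536% ± 0.449 of the TRA counts of control libraries (SD, n = 5) and 0.191% ± 0.116 of those of combination libraries (SD, n = 6). The share was 0.420% ± 0.172 with trametinib and 0.275% ± 0.163 with BGB-283 alone (SD, n = 6 each). The groups overlapped, with control libraries between 0.0437% and 1.14% and combination libraries between 0.0135% and 0.356%. With V names merged, the difference between combination and control did not pass (log2 -1.36, SE 3.22, adjusted p = 1.0, edgeR's quasi-likelihood test over 2334 pairs).

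TRAJ21 with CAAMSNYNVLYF, listed under 19 V names and in 21 libraries, behaved differently. TRAV7D-3 took 62.1% of its counts, nearly all from 1 library. This clonotype stood at 6.86% (28566 counts) in combination D4 replicate 3, at 0.0234% to 0.378% in 4 other combination libraries, at 0.0187% in control D11 replicate 1 and at 0.00679% in trametinib D4 replicate 3, and no BGB-283 library listed it. With names merged, the pair held 1.82% ± 2.69 in combination and 0.401% ± 0.489 in control libraries (adjusted p = 1.0, edgeR's quasi-likelihood test).
The canonical alpha chain of invariant natural killer T (iNKT) cells, T cells that recognise lipids on CD1d, joins TRAV11 to TRAJ18. It was split over TRAV11N (89.7% of its counts), TRAV11V11D (9.85%) and TRAV11V11DV11N (0.474%), all public, and occurred in 20 libraries. Of 42 clonotypes with TRAV11 and TRAJ18, 4 were public. No public clonotype had the alpha chain of mucosal-associated invariant T cells (TRAV1 with TRAJ33) or of Valpha10 NKT cells (TRAV10 with TRAJ50), of which 3 and 22 clonotypes were found.

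Merging V names changed how many CDR3s counted as public. Of 22375 pairs of J segment and CDR3, 519 were found in 5 or more libraries, and 392 of these had no public clonotype under any single V name. The merged pairs held 27.3% of TRA counts in control, 30.2% with trametinib, 32.4% with BGB-283 and 28.7% with both drugs.

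A treatment has only 5 or 6 libraries, so listing in 5 or more libraries nearly always spans more than 1 treatment. The spread over treatments and days thus follows largely from the membership rule and is only described. Of the 158, 53 were listed in all 4 treatments, 80 in 3 and 25 in 2, and none in only 1. By treatment, 83 were listed in control, 140 with trametinib, 123 with BGB-283 and 156 with both drugs, and 75 were at 0 in every control library. Both days listed 155 of them, and 3 were listed at D4 alone. Control had the fewest libraries and the lowest depth, and their part in these counts was not tested.

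To ask whether single public clonotypes changed with treatment, edgeR's quasi-likelihood test was fitted to 1359 TRA clonotypes, all 158 public ones included. In combination against control 0 public clonotypes passed an adjusted p of 0.05, and 0% of all tested did. In trametinib against control it was 0 (0% of all), in BGB-283 against control 0 (0% of all), in combination against trametinib 0 (0% of all), in combination against BGB-283 0 (0% of all) and in D11 against D4 0 (0% of all). The smallest adjusted p of a public clonotype was 0.766, 1.0, 1.0, 0.463, 0.392 and 1.0 in that order (edgeR). At an unadjusted p under 0.05 there were 3 public clonotypes in combination against control, which is 1.9% of the 158 beside 0.736% of all tested. There were 3 in trametinib against control (1.9% beside 0.736%) and 8 in BGB-283 against control (5.06% beside 1.25%). There were 14 in combination against trametinib (8.86% beside 10.1%), 21 in combination against BGB-283 (13.3% beside 12.6%) and 8 in D11 against D4 (5.06% beside 0.662%). Public clonotypes were chosen by listings in these same libraries, so a difference between these percents is no finding. The biological coefficient of variation, the spread of a clonotype between libraries of a group relative to its mean, was 4.25. Standard errors were wide. In combination against control, TRAV7D-3 TRAJ21 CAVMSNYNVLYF had a log2 difference of 12.86 (SE 6.08) and an adjusted p of 0.766 (edgeR). Even an estimate of this size did not pass, so 0 calls cannot be read as no change.

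Other tests split. An exact permutation test on the log2 scale also left 0 calls after adjustment in each contrast, with 9, 3, 1, 4, 5 and 6 public clonotypes at an unadjusted p under 0.05 (5.7%, 1.9%, 0.633%, 2.53%, 3.16% and 3.8% of the 158, beside 0.662%, 0.221%, 0.0736%, 0.294%, 0.368% and 0.589% of all tested). Over all tested clonotypes the numbers were 9, 3, 1, 4, 5 and 8, so nearly all of these were the public ones. Reaching a small p in this test takes listings in several libraries, which the membership rule requires. The difference in percent is therefore no finding. DESeq2 called 57 public clonotypes in combination against control, all 57 higher (8.31% of all tested were called higher and 0.368% lower). By plain mean share, 50 of the 57 were higher. Of the 57, 39 were at 0 in every control library, 36 were above 0 in 3 or fewer of the 6 combination libraries, and 0 were above 0 in all 6. It called 30 in trametinib against control (29 higher, 2.94% of all; 1 lower, 0.442%), 34 in BGB-283 against control (29 higher, 2.35%; 5 lower, 0.515%), 33 in combination against trametinib (27 higher, 4.49%; 6 lower, 1.1%), 47 in combination against BGB-283 (39 higher, 5.89%; 8 lower, 1.03%) and 26 in D11 against D4 (10 higher, 0.957%; 16 lower, 2.94%). The calls thus depended on the tool. How many were public, set beside the percent of all tested, is again no finding, because membership rests on listings in these libraries.

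The clonotypes with the smallest unadjusted p show what the contrasts rested on. In combination against control these were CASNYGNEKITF, described above, TRAV7D-3 TRAJ21 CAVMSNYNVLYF and a TRAV16D/DV11V16N TRAJ30 clonotype. Under these V names all were at 0 in every control library. Under other public V names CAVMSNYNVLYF was listed in control. TRAV7-3V7D-3 had 173 counts in control D4 replicate 3, and TRAV7-1 had 120 in control D4 replicate 2. With TRAV7D-3, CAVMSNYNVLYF was listed in 4 trametinib libraries (up to 1.95%), 3 BGB-283 libraries (up to 0.258%) and 4 combination libraries (up to 1.77%). Under that name its adjusted p was 0.766 in combination against control and 1.0 in trametinib against control (edgeR).
In BGB-283 against control the smallest p was that of TRAV7D-2 TRAJ9 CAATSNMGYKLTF. It stood at 0.718%, 0% and 0.367% at D4 and 0% and 0.203% at D11 in control, at 0 in all 6 BGB-283 libraries, and at up to 0.383% in trametinib libraries (adjusted p = 1.0, edgeR). TRAV7D-2 TRAJ9 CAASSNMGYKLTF, which differs from it in 1 residue, was at 0 in all 5 control libraries and was listed in 4 of 6 BGB-283 libraries, at up to 1.23%. It was among the 3 smallest p in trametinib against control (adjusted p = 1.0, edgeR). Neither clonotype separated the groups, since each had libraries at 0 on both sides.

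Further clonotypes among the most widely listed show the spread between treatments. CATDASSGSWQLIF with TRAV8-1V8D-1 and TRAJ22 was listed in all 6 combination libraries (0.0125% to 0.0948%, median 0.0418%), in 5 of 6 trametinib libraries (up to 0.137%), in 1 BGB-283 library at 0.00735% and in 1 control library at 0.0731%. Its unadjusted p was 0.005 in combination against BGB-283 (exact permutation test within days), the smallest that test can give here, and it did not pass adjustment over 1359 clonotypes. The same CDR3 was also public under TRAV8-2. That clonotype had 10 counts in control D4 replicate 3, 389 in control D11 replicate 1 and 46 in BGB-283 D4 replicate 1.
TRAV14-2V14N-2 TRAJ22 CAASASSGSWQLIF stood in control at 0%, 0.353% and 0.0581% at D4 and 0.541% and 0.261% at D11. It ran from 0% to 0.392% in trametinib (median 0.207%), from 0% to 0.145% in BGB-283 (median 0.0559%) and from 0.00521% to 0.144% in combination libraries (median 0.0699%). All 4 ranges overlapped.
TRAV11N with TRAJ18 was at 0%, 0.209% and 0% at D4 and 0% and 0.163% at D11 in control, and at 0.172% to 1.57% with trametinib, 0.0766% to 0.622% with BGB-283 and 0.299% to 0.974% with both drugs. Every combination library lay above every control library (unadjusted p = 0.005, exact permutation test, not passing adjustment over 1359 clonotypes). The same exact permutation test against control gave an unadjusted p of 0.01 with trametinib and 0.045 with BGB-283. Mean shares were 0.561% with trametinib and 0.539% with both drugs, so a higher share than control was not particular to the combination. Lack of overlap was not counted over all tested clonotypes.

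Between days, the lowest p was that of a TRAV7D-2 clonotype with TRAJ5 and a CDR3 of 15 residues. It was listed in 8 of 12 libraries at D4 and in 1 of 11 at D11, with a highest share of 4.76% in combination D4 replicate 2. Its unadjusted p was 0.00175 (exact permutation test within treatments) and 0.00442 (edgeR), with an adjusted p of 1.0 (edgeR).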

How the data were processed

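T cell receptor transcripts of 23 libraries were read from 1 deposited table, in which the authors gave a whole-number count for each receptor chain, named by its V and J segments and CDR3, with totals that differ between libraries. Per the labels' protocols, the RNA came from AllPrep and mirVana extractions and the libraries from a QIAseq immune repertoire kit. GRCh38, which is human, is the build in the submitters' processing notes, although the organism is mouse. Which aligner, caller and filters were used is not given in the sources used here. No listed count is under 3, so 0 means listed at 0. Counts look like reads over molecular identifiers, and an alternative divided each by 20 and rounded up.

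Only TRA entries were used, and 92 with an unresolved residue were left out. Public clonotypes and all lists were chosen with earlier results of these data known. Among segment names of public clonotypes, 27 of 27 J and 26 of 42 V names were found in the RefSeq mouse gene table; the others are joint names. No coordinates were used. Shares are percent of a library's TRA counts. Thinning used 100 seeded draws.

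The 8 groups were fitted with edgeR 4.0.16 (R 4.3.3; quasi-likelihood test, filterByExpr, TRA total as library size, TMM off), Benjamini-Hochberg adjusted over all 1359 clonotypes at 0.05. Treatment contrasts average both days, and the fit was tested on simulated data. Alternatives were TMM, DESeq2 1.42.0 (poscounts), no filter, molecules, merged V names, a replicate block, an exact permutation test within strata (log2 of CPM plus 1), and each library left out. Consensus settings and leaving out each library's largest public clonotype were added after seeing the data. Tables used Python 3.11.15 and pandas 2.3.3.

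Named clonotypes are the 10 in most libraries, the 3 with the smallest p per contrast where fewer than 5 passed, the 5 with the highest mean share, the iNKT alpha chain, and the 3 pairs of J segment and CDR3 with the most public V names (ties by merged libraries); others named were chosen after their values were seen. Replicate numbers were treated as names and not as pairs: 0 of the 28 group pairs had each same-number correlation above 0.1 (range -0.0757 to 0.0661, mean 0.00997).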

Additional observations from a re-analysis of the deposited data

Results flagged for a closer look

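Shares of TRA counts were compared within each treatment for libraries standing far from the others. Of 68 sets of 5 or 6 libraries, 26 held such a library. The rule flags about 1 set in 20 for normally distributed values, which these shares are not. Many shares are 0, and a set with a single library above 0 always qualifies. Some clonotypes were also picked for a high mean share, so the number flagged cannot be set against chance. Public clonotypes together took 53.5% in BGB-283 D4 replicate 2, the next library being at 16.7%, and TRAV14-2V14N-2 with TRAJ42 alone took 46.3% there against 2.43%. This TRAJ42 clonotype also stood apart at 1.14% in control D4 replicate 3, 0.646% in trametinib D11 replicate 2 and 0.286% in combination D4 replicate 2. Public clonotypes made up 4.39% of the TRA clonotypes of combination D11 replicate 3, the next being 3.17%.

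TRAV13D-1 with TRAJ5 was at 18.8% in control D4 replicate 3 against 0.533%. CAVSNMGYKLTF with TRAV7N-5 was at 8.49% in control D4 replicate 2, 2.20% in BGB-283 D4 replicate 3 and 1.12% in combination D4 replicate 2, with next values of 1.65%, 0.232% and 0.292%. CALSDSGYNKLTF was at 4.86% in trametinib D4 replicate 3 and 1.85% in BGB-283 D11 replicate 2, with next values of 1.46% and 0.575%. The TRAV7D-2 clonotype with TRAJ37 was at 0.227% in control D4 replicate 1, 6.23% in trametinib D11 replicate 3 and 6.21% in combination D4 replicate 2, with next values of 0%, 0.537% and 1.58%.

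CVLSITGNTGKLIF was at 0.151% in control D11 replicate 2, 2.92% in trametinib D4 replicate 3 and 0.417% in combination D4 replicate 3. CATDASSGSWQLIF with TRAV8-1V8D-1 was at 0.0731% in control D11 replicate 2 and 0.00735% in BGB-283 D11 replicate 2. Each was the only listing of its treatment under that V name. TRAV14-1V14N-1 with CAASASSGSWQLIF was at 0.547% in control D11 replicate 1 and 0.204% in BGB-283 D11 replicate 1. Of the canonical iNKT alpha chain, TRAV11N was at 1.57% in trametinib D11 replicate 2, TRAV11V11D at 0.141% in control D11 replicate 2, and TRAV11V11DV11N at 0.00812% in BGB-283 D4 replicate 3 and 0.0195% in combination D11 replicate 1. No cause of any of these was tested.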

How the results depend on the processing

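In every contrast edgeR left 0 public clonotypes with TMM, without the filter, on estimated molecules, with V names merged and with each library left out (0 to 0). With the replicate block edgeR called 0 in each of the 6 contrasts. Given the wide standard errors of the main fit, 0 calls by edgeR do not show that nothing changed. The exact permutation test also left 0, but with 200 or 400 arrangements in the treatment contrasts it could hardly have called any there. DESeq2 called 57 for both drugs, 30 for trametinib and 34 for BGB-283 against control, 33 in combination against trametinib, 47 against BGB-283 and 26 in D11 against D4; the cause was not tested.

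The number of public clonotypes was 88 at counts of 20 or more, 295 in 4 or more and 93 in 6 or more libraries, 519 with V names merged, 133 after thinning, and 117 to 154 with 1 library left out, lowest without combination D4 replicate 2. Their share of TRA counts ran with 1 library left out from 13.8% to 19.5% in control, 14.4% to 18.4% in trametinib, 13.9% to 23.5% in BGB-283 and 15.4% to 18.9% in combination libraries. With V names merged it was 27.3% in control, 30.2% in trametinib and 28.7% in combination libraries. Without each library's largest public clonotype it was 7.63% in control, 11.9% with trametinib, 7.71% with BGB-283 and 10.2% in combination libraries, and 7.89% in combination libraries with membership set by the other treatments. The CDR3 length difference reversed to 0.105 residues when weighted by counts. The residues outside consensus kept their direction under all 3 alternatives run, from -1.61 to -0.78. Counts of 3 to 20 made up 20.5% of the listings of public clonotypes, so detection in a library often rests on few reads.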
